A study of Mus musculus with 4 samples.

Results

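The 9 genes Dcn, Bgn, Lum, Fmod, Kera, Ogn, Omd, Aspn and Prelp encode small leucine-rich proteoglycans of the extracellular matrix. They were followed in peaks of chromatin immunoprecipitation with sequencing (ChIP-seq) from a study of the transcription factor TEAD1 in cardiac fibroblasts of newborn mice. A peak was assigned to a gene when its summit, the position of highest ChIP signal, lay in the annotated span of the gene or within 50 kb of either end. By this rule 21 of 21285 peaks in one deposited list and 23 of 21218 in the other belonged to the 9 genes, out of 21631 protein-coding genes on the chromosomes with peaks. The cells carried either a TEAD1 overexpression construct (OE-TEAD1) or its negative control (OE-NC), and each condition gave 1 ChIP library and 1 input library, 4 libraries in all with no replicates. The labels name no mouse strain, no vector or promoter for the construct, no number of animals and no antibody. The 2 peak lists were called against input and carry no label that ties either to OE-TEAD1 or OE-NC. They are called list 1 and list 2, no effect of overexpression can be read from them, and no test between them was made. Peaks do not measure expression, so the labelled cell type could not be checked against marker genes.

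Small leucine-rich proteoglycans consist of a core protein of leucine-rich repeats, most often with chondroitin, dermatan or keratan sulfate chains. They bind collagen and set the diameter and spacing of its fibrils, and several bind growth factors such as TGF-beta. Fibroblasts are a main source of decorin, biglycan and lumican in connective tissue, the heart included. TEAD1 binds DNA at sites with the core letters GGAATG and recruits the Hippo pathway coactivators YAP and TAZ.

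The strongest peak at these genes lay at the start of Ogn, the gene of osteoglycin (also called mimecan), a class III member that in rats has been linked to left ventricular mass. In list 1 the peak spanned chr13:49607582-49608248 with its summit at 49607930, 85 bp before the annotated start of Ogn. In list 2 it spanned chr13:49607660-49608310 with its summit at 49607939, 76 bp before that start. All coordinates are GRCm38. The promoter of Ogn is shown because both summits fall in it. The 300 bases come from RefSeq (GRCm38.p6, chr13:49607765-49608064, plus strand) and run from 250 bases before the annotated start to 50 bases from it onward, with the only match to GGAATG in capitals.
Ogn promoter: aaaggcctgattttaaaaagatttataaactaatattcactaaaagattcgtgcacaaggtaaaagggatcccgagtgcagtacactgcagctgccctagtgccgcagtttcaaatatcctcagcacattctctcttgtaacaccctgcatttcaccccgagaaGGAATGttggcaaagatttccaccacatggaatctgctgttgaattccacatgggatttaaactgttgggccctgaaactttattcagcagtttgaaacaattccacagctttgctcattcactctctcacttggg
The capitals occupy positions 49607929 to 49607934 and begin 86 bases before the start. The list 1 summit lay inside these letters, and the list 2 summit lay 5 bp beyond their last base. Each promoter was searched on both strands for GGAATG, the TEAD core, and for TGANTCA, the AP-1 site, which reads the same on both strands. Of the 9 genes 7 had a promoter sequence, and GGAATG was found in that of Ogn and not in those of Aspn, Bgn, Fmod, Kera, Omd and Prelp. TGANTCA was found in none of the 7. GGAATG occurred in 14.7% of 32851 RefSeq promoters of the same length, in 44.7% of the 304 promoters with a list 1 summit inside them and in 45.3% of the 276 with a list 2 summit. A summit within 5 bp of these letters was found in 37 of those 304 promoters in list 1 and in 32 of those 276 in list 2. TGANTCA occurred in 7.81% of all these promoters, in 19.4% of those with a list 1 summit and in 21.0% of those with a list 2 summit. A match to these letters is a description of the sequence and does not show a binding site.

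At its summit the Ogn start peak held 69 ChIP fragments in list 1 over a local input background of 2.07 fragments, and 74 in list 2 over 2.13. Fold over input, here and below the authors' value, is the ratio of ChIP pileup to local background with 1 added to both. It was 22.8 in list 1 (95% interval 17.8 to 28.7) and 23.9 in list 2 (18.9 to 29.96). These are exact Poisson intervals of the ChIP fragment number, and they cover counting error only. By -log10 q, the significance of a peak in the authors' deposited table, 4.64% of all list 1 peaks and 6.37% of all list 2 peaks were at least as strong. A summit within 250 bp of an annotated start was uncommon. It was found for 1 of the 7 members with a promoter sequence in each list, that of Ogn. Of 17274 protein-coding genes with a promoter sequence, 1.15% had one in list 1 and 1.05% in list 2. Ogn had a second peak in both lists, inside its span and 1.14 kb (list 1) and 1.12 kb (list 2) from the upper end. That peak was 6.24-fold over input in list 1 (3.73 to 9.91) and 6.99-fold in list 2 (4.53 to 10.3). Beyond the gene each list held a weak peak of its own, 20.9 kb from the span in list 1 (3.25-fold, 9 fragments) and 19.4 kb in list 2 (4.37-fold, 14 fragments).

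**Figure D1:**
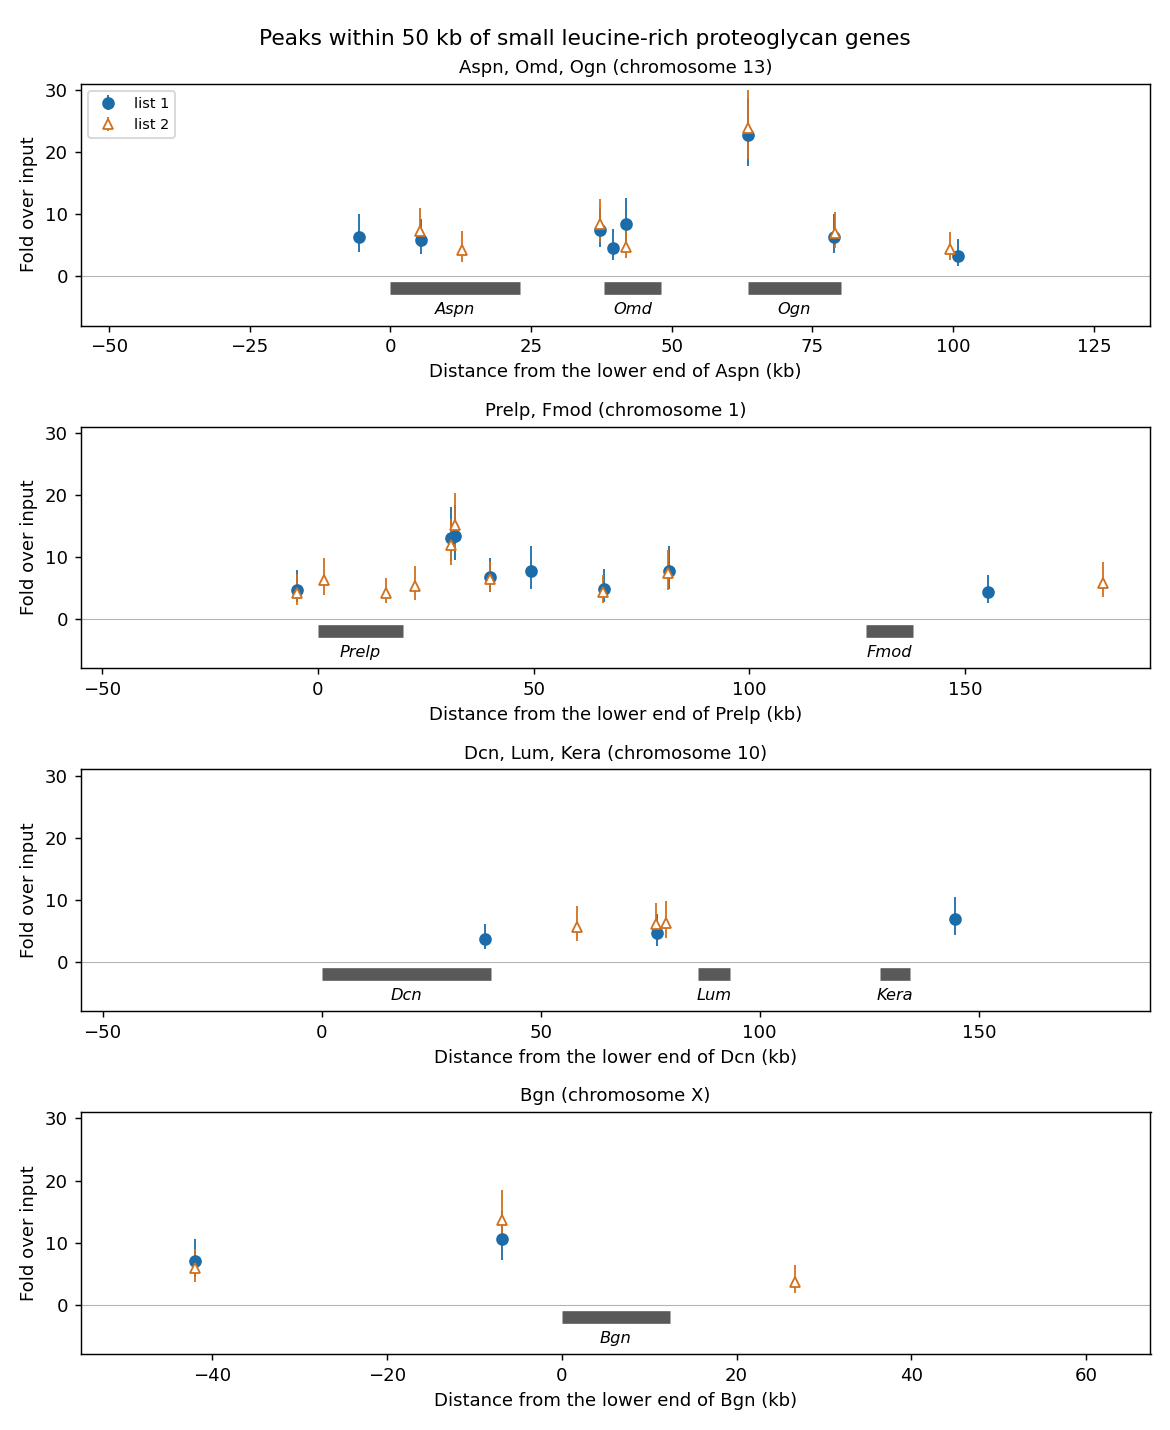
Fold over input (linear axis) of every peak within 50 kb of the 9 genes, against the distance in kb from the lower-coordinate end of the first gene in each panel. Filled circles are list 1, open triangles list 2, bars are 95% Poisson counting intervals and grey boxes are gene spans; the Ogn start peak stands at 22.8-fold in list 1 and 23.9-fold in list 2, and no other peak shown exceeds 15.2-fold.

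The 9 genes lie in 4 groups on the genome. Neighbouring members share peaks in the groups on chromosomes 13 and 10, while Prelp and Fmod share none. Aspn, Omd and Ogn follow each other on chromosome 13, Dcn, Lum and Kera on chromosome 10, and Prelp and Fmod on chromosome 1, while Bgn is alone on chromosome X. Of the 21 list 1 peaks 12 lay within 50 kb of 1 member, 5 of 2 members and 4 of 3 members. In list 2 the numbers were 14, 5 and 4. The windows of 50 kb merged into 5 stretches of 0.757 Mb in all, which held 27.7 summits per Mb in list 1 and 30.4 in list 2. Across the stretches between the first and last peak of each chromosome, list 1 held 8.37 summits per Mb and list 2 held 8.32. Whether stretches around other matrix genes or other expressed genes are as dense was not tested.

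Every member had a summit in its window in both lists, against 58.2% of protein-coding genes in list 1 and 59.0% in list 2. This count rests on few independent stretches, since a peak near 1 gene was often counted for its neighbours. Aspn, Omd, Ogn and Prelp each had at least 5 summits in both lists, or 4 of 9 members, against 9.37% of genes in list 1 and 8.88% in list 2. Aspn, Omd and Ogn reached this number largely on the same peaks, 8 in list 1 and 7 in list 2 for their group, and are not independent counts. The members had a median of 2 summits in list 1 and 3 in list 2, against 1 per protein-coding gene in each list, with median spans of 12.3 kb for the members and 17.3 kb for all genes. Medians of 2 and 3 were also seen at 9 further family genes counted below, and 3 in each list at genes of receptors and proteases. Chondroitin and dermatan sulfate genes had 1.5 and 1, keratan sulfate genes 2 and 1, and other matrix and cell-surface proteoglycans 1 in each list. With the window set to 10 kb, 7 members had a summit in list 1, against 33.7% of genes, and 6 in list 2, against 33.8%. Fmod and Kera had none within 10 kb in either list, and Dcn had one in list 1 only. A summit inside the span was found for Dcn, Aspn, Omd and Ogn in list 1, against 20.7% of genes, and for Aspn, Omd, Ogn and Prelp in list 2, against 20.8%.

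**Figure D2:**
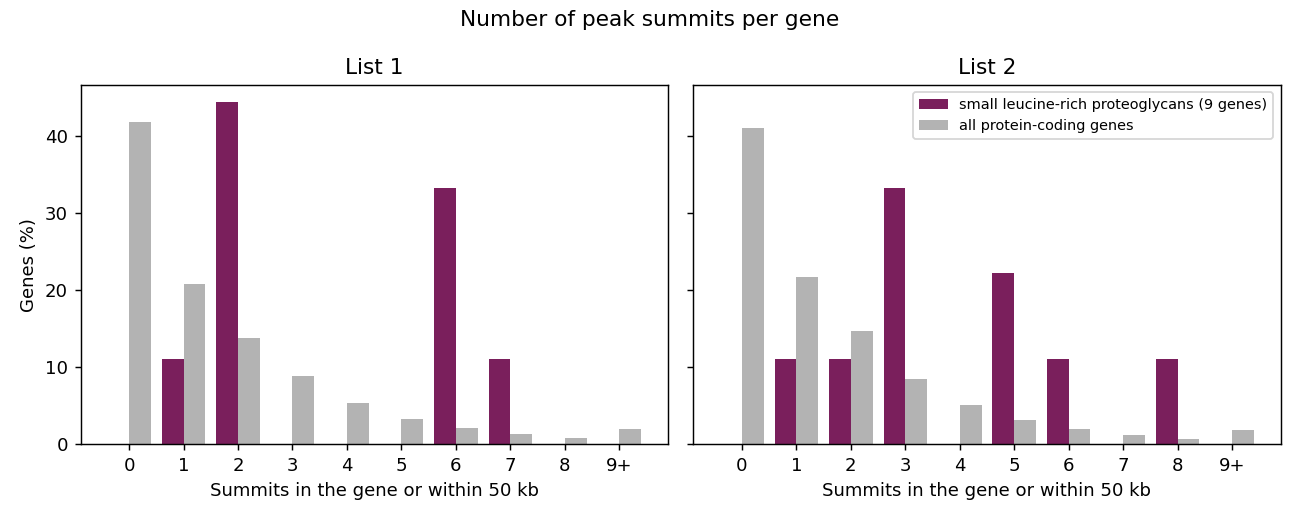
Share of genes (%, linear axis from 0) by the number of peak summits in the gene or within 50 kb, for list 1 on the left and list 2 on the right. Purple bars are the 9 small leucine-rich proteoglycan genes and grey bars all 21631 protein-coding genes; no member is at 0 summits, where 41.8% of genes in list 1 and 41.0% in list 2 are.

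Fold over input had a median of 6.68 at the 21 list 1 peaks and 6.06 at the 23 list 2 peaks, against 6.24 over all list 1 peaks and 6.83 over all list 2 peaks. Of the 21 list 1 peaks 8 lay below the median fold of list 1, and of the 23 list 2 peaks 15 lay below that of list 2. They rested on a median of 20 fragments in list 1 (range 9 to 69) and 18 in list 2 (10 to 74). In list 1, 4 of 21 peaks were 10-fold or more over input, or 19.0% (Wilson 95% interval 7.67 to 40.0), against 22.9% of all list 1 peaks. In list 2, 4 of 23 were, or 17.4% (6.98 to 37.1), against 28.1%. These 4 were the same sites in both lists: the Ogn start, a pair above Prelp and a site before Bgn. The Wilson intervals, here and below, treat peaks as independent, though the peaks lie in 5 merged stretches. Ranked by the strongest peak closest to each gene, list 1 ran Ogn, Prelp, Bgn, Omd, Fmod, Kera, Aspn, Lum and Dcn, with folds of 22.8 at the top and 3.62 at the end. List 2 ran Ogn, Prelp, Bgn, Omd, Fmod, Aspn, Lum and Dcn, with folds of 23.9 at the top and 5.61 at the end, and no peak was closest to Kera. In both orders the counting intervals of every pair of neighbours overlapped. Those of Ogn and Bgn did not overlap in either list.

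Dcn, Bgn and Aspn are the class I members. Among the peaks that lay closest to one of these 3 genes, that of Bgn was the strongest. Bgn encodes biglycan, a chondroitin or dermatan sulfate proteoglycan that binds collagen and, once released, Toll-like receptors. Its main peak lay 6.87 kb before the start in list 1 (chrX:73476333-73476846, 29 fragments, 10.6-fold, 7.21 to 15.1). In list 2 it lay 6.86 kb before the start (chrX:73476353-73476860, 38 fragments, 13.6-fold, 9.73 to 18.5). A weaker site 41.9 kb before Bgn in list 1 and 42.0 kb in list 2 was 6.96-fold and 5.82-fold over input, and it lay inside Haus7, which encodes an augmin subunit of the mitotic spindle. List 2 alone had a peak of 10 fragments (3.63-fold) 14.4 kb beyond Bgn, inside the calcium pump gene Atp2b3.

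Aspn encodes asporin, which binds collagen and TGF-beta and carries no such chain. The Ogn start peak, 40.4 kb beyond its span in both lists, also lay in its window. Its peak inside the gene, 5.40 kb from the start in list 1 and 5.36 kb in list 2, was 5.86-fold over input in list 1 (3.55 to 9.18) and 7.26-fold in list 2 (4.62 to 10.9). List 1 alone had a site 5.59 kb before the start (6.35-fold), and list 2 alone one inside the gene (4.19-fold, 11 fragments). Dcn encodes decorin, which binds collagen fibrils and sequesters TGF-beta. It came last in both orders of the strongest peak closest to each gene. By the 50 kb rule its strongest peaks were those below Lum. They were 4.59-fold in list 1 at 37.8 kb from Dcn and 6.27-fold in list 2 at 40.0 kb, the same as for Lum. Of peaks closest to Dcn, list 1 had one inside the span, 1.41 kb from the upper end, with 12 fragments (3.62-fold, 2.004 to 6.11). List 2 had none in the span, and its closest peak lay 19.7 kb beyond the upper end with 16 fragments (5.61-fold, 3.35 to 8.91). No summit of either list lay in the 50 kb below the lower end of Dcn, and the nearest on that side were at 51.8 kb in list 1 (3.65-fold) and 51.6 kb in list 2 (3.22-fold).

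Lum, Fmod, Kera, Omd and Prelp are the class II members, most of which carry keratan sulfate. Among the peaks that lay closest to one of these genes, a pair near Prelp was the strongest. Prelp encodes a protein that anchors basement membranes to connective tissue. A pair of sites lay 11.1 and 12.0 kb above its span in list 1 (11.1 and 12.1 kb in list 2). The annotated start of Prelp used here lies inside the span, and the pair lay farther before it. The distances to that start were 19827 and 20723 bp in list 1 and 19776 and 20762 bp in list 2. The nearer site, chr1:133940981-133941378 in list 1, had 36 fragments in list 1 and 40 in list 2, with folds of 13.1 (9.25 to 17.9) and 11.9 (8.61 to 16.1). The farther site, chr1:133942010-133942466 in list 1, had 37 and 45 fragments, with folds of 13.4 (9.55 to 18.4) and 15.2 (11.2 to 20.2). The pair recurred at the same places in both lists, with summits 51 and 39 bp apart between them. Farther out, a site 20.1 kb above the span was 6.68-fold in list 1 and 6.41-fold in list 2, and one at 46.5 kb in list 1 and 46.3 kb in list 2 was 4.77-fold and 4.36-fold. A site on the other side lay inside Optc, the neighbouring gene of opticin, at 4.72-fold in list 1 and 4.19-fold in list 2. List 2 alone had 2 peaks inside the Prelp span, of 6.28-fold and 4.24-fold, and another 2.61 kb above it (5.23-fold). List 1 alone had a site 29.5 kb above it (7.71-fold).

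Omd encodes osteomodulin, a keratan sulfate proteoglycan of bone. The Ogn start peak, 15.3 kb beyond its span in both lists, also lay in its window. The summit closest to its start lay 0.808 kb before it in list 1 and 0.768 kb before it in list 2, with 21 and 23 fragments and folds of 7.42 (4.72 to 11.2) and 8.37 (5.44 to 12.4). A site inside the gene, 3.81 kb from the start in list 1 and 3.80 kb in list 2, was 8.45-fold in list 1 (5.43 to 12.6) and 4.69-fold in list 2 (2.84 to 7.35). List 1 alone had a further peak in the gene (4.55-fold, 13 fragments). The spans of Aspn, Omd and Ogn all lie inside that of Cenpp, the gene of a centromere protein, so all 8 list 1 peaks and all 7 list 2 peaks of this group were also inside Cenpp. The lists of peaks do not tell which of these genes, if any, a site acts on.

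Fmod encodes fibromodulin, which binds collagen and the crosslinking enzyme lysyl oxidase. It had no summit within 10 kb of its span. A site 45.7 kb before its start had 20 fragments in each list, with folds of 7.71 in list 1 and 7.33 in list 2. On the other side, list 1 had a peak of 4.30-fold at 17.3 kb and list 2 one of 5.82-fold at 43.9 kb, both nearer to Btg2, an antiproliferative gene. Just outside the window on that side, 51.2 kb from the span of Fmod in both lists, lay a further site. This site lay beyond Btg2 and was also nearer to Btg2 than to Fmod. The site was 42.8-fold in list 1 (175 fragments) and 51.6-fold in list 2 (147 fragments). It was stronger than any peak inside the window of a member, and the limit of 50 kb decides whether it is counted.

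Lum encodes lumican, which regulates collagen fibril diameter in cornea, skin and heart, and Kera encodes keratocan, a proteoglycan of the cornea. The site shared by the lists lay 9.52 kb below the lower end of Lum in list 1 and 9.57 kb in list 2, with 12 fragments (4.59-fold, 2.54 to 7.75) and 18 fragments (6.06-fold, 3.72 to 9.40). List 2 alone had a second site 7.37 kb below Lum (6.27-fold, 3.85 to 9.72), which at 48.8 kb from Kera was also its only peak in that list. List 1 alone had one 10.3 kb beyond Kera (6.83-fold, 4.30 to 10.4). The chromosome 10 group thus held 3 peaks in each list, none above 6.83-fold, and 1 of the 3 was shared.

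Between the lists, 14 sites were called in both, 7 in list 1 only and 9 in list 2 only, 30 sites in all. The shared sites made up 66.7% of the 21 list 1 peaks (Wilson interval 45.4 to 82.8) and 60.9% of the 23 list 2 peaks (40.8 to 77.8), against 70.9% and 71.4% of all peaks. Sites of 1 list only were 3.25-fold to 7.71-fold in list 1, with 9 to 20 fragments, and 3.63-fold to 6.28-fold in list 2, with 10 to 18 fragments. The summits of the shared sites lay 1 to 276 bp apart, with a median of 39.5 bp, against 25 bp over all 15015 pairs. The fold was higher in list 1 at 7 of the 14 sites and higher in list 2 at the other 7. On the log2 scale, the fold in list 1 divided by that in list 2 had a median of -0.0063 at these sites, against -0.15 over all pairs, so that relative to all pairs it was 0.15. A difference of at least 1.5 times was seen at 1 of 14 sites, the one inside Omd (log2 ratio 0.85, higher in list 1), against 8.56% of all pairs higher in list 1 by that much and 21.1% higher in list 2. At that site the backgrounds were 1.72 fragments in list 1 and 2.84 in list 2, and the ChIP fragments 22 and 17. With each list's genome-wide floor as background (1.72 and 1.87 fragments), the log2 ratio there was 0.43, a difference of less than 1.5 times. Counting intervals overlapped at all 14 sites.

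**Figure D3:**
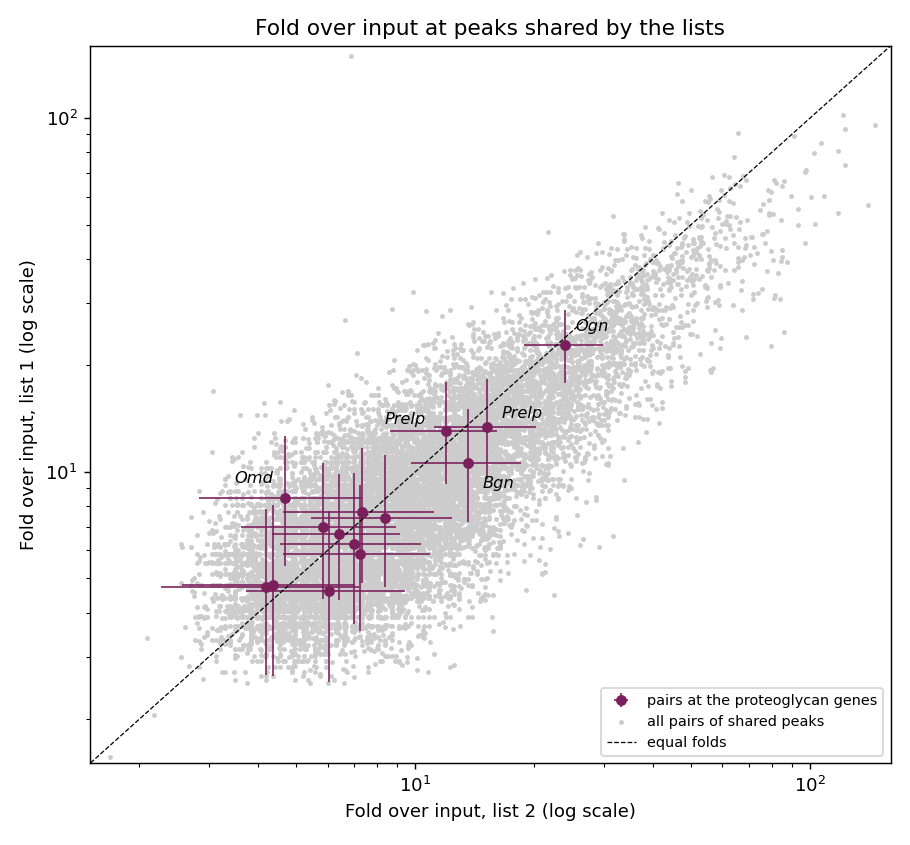
Fold over input in list 1 (y, log axis) against list 2 (x, log axis) at sites called in both lists. Purple points are the 14 sites at the proteoglycan genes with 95% Poisson counting intervals, grey points all 15015 pairs, and the dashed line marks equal folds; the Ogn start lies close to that line at 22.8-fold in list 1 and 23.9-fold in list 2.

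Other genes of proteoglycan biology were counted by the same rule. Beside them stand the same 58.2% of genes in list 1 and 59.0% in list 2, which are not matched for span. Median spans were 17.1 kb for further family genes, 36.1 kb for chondroitin and dermatan sulfate genes and 15.6 kb for keratan sulfate genes. They were 28.9 kb for other matrix and cell-surface proteoglycans and 46.2 kb for receptors and proteases, against 17.3 kb for all genes. Of 9 further genes of the leucine-rich proteoglycan family all had a summit in list 1 and 8 in list 2, with Chadl the exception. Tsku, the gene of the secreted signalling regulator tsukushi, led them with a site 30.2 kb from its span in list 1 and 30.3 kb in list 2 (27.0-fold and 30.3-fold). Chad, the gene of the cartilage protein chondroadherin, came next. Its strongest site was 22.8-fold in list 1, at 21.1 kb from the span, and another one, at 16.2 kb, was 22.3-fold in list 2. Ecm2, next to Aspn, had a site of 18.2-fold in list 1 and 14.0-fold in list 2, 44.4 kb from its span in both. The windows of Optc, Ecm2 and Epyc overlap those of members, and the strongest peak counted for Optc was the farther Prelp site.

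Genes that build the chondroitin and dermatan sulfate chains had a summit in 13 of 22 cases in list 1 and 15 of 22 in list 2. Csgalnact1, which starts chondroitin chains, had a site in its span of 20.8-fold in list 1 and 22.1-fold in list 2, and Ust, a uronyl sulfotransferase, one of 20.5-fold and 25.9-fold. Chst11, a chondroitin sulfotransferase, had one in its span of 16.2-fold and 18.8-fold. Keratan sulfate synthesis genes had a summit in 5 of 7 cases in each list, led by the galactosyltransferase gene B4galt1. Its strongest site was 35.6-fold in list 1, at 2.46 kb outside the span, and another one inside the span was 37.0-fold in list 2. Chst1, a keratan sulfate sulfotransferase, had one 12.6 kb from its span of 13.2-fold in list 1 and 9.83-fold in list 2. B3gnt7, which extends keratan sulfate chains, had one 2.88 kb from its span in list 1 and 2.85 kb in list 2, of 8.64-fold and 13.6-fold. Other matrix and cell-surface proteoglycan genes had a summit in 9 of 15 cases in each list, led by Esm1, the gene of endocan. Its site was 28.3-fold in list 1, at 7.25 kb from the span, and 20.1-fold in list 2, at 7.26 kb. Spock2, the gene of the secreted proteoglycan testican-2, had a site in its span of 17.0-fold in list 1 and 15.3-fold in list 2. The strongest sites of Bcan, the gene of the brain proteoglycan brevican, differed between the lists. They were 11.7-fold in list 1, at 44.8 kb from the span, and 8.18-fold in list 2, at 33.1 kb. Genes of receptors and proteases that act with these proteins had one in 16 of 19 cases in each list. The receptor gene Met had a site of 38.9-fold in list 1 and 40.7-fold in list 2, at the same summit. Lrp1, an endocytic receptor of decorin, had one of 23.1-fold in list 1 (154 fragments) and 56.2-fold in list 2 (192 fragments). There the fragments differed less between the lists than the folds, which also depend on the local background. Tlr4, a receptor of biglycan, had a site of 34.2-fold and 27.6-fold at 48.1 kb from its span.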

How the data were processed

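Per the submitters' processing notes, the tools were Trimmomatic 0.33 for trimming, Bowtie 1.1.2 for alignment and MACS2 for peaks. How MACS2 was set and whether reads were pooled or duplicates removed is not given in the sources. The deposited lists give per peak the fold over input as a ratio, the -log10 p and -log10 q, a summit and a score that was not used further. The notes name mm39. Coordinates were read as GRCm38, because summits gathered at the starts of the GRCm38.p6 RefSeq table: 612 list 1 summits lay under 500 bp from a start and 198 between 9500 and 10000 bp, and 575 and 206 in list 2.

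ChIP fragments and local background at each summit were solved from the deposited fold and p (whole within 0.02 for all but 2 peaks per list; tested on simulated data). No summit of either list rested on fewer than 8 fragments. Sharing required an overlap of 1 bp, and pairs were each other's best overlap. Alternatives changed the window, the peak threshold, the overlap and the background. The genes named outside the 9 were the 3 of each list with the highest -log10 q in list 1 (a value of the authors' deposited table), and neighbours whose span held or lay nearer to a peak. Members and lists were chosen with earlier results of these data known. Python 3.11.15, pandas 2.3.3 and scipy 1.17.1 were used. No test was made, since each condition has 1 ChIP and 1 input library.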

Additional observations from a re-analysis of the deposited data

How the results depend on the processing

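No paired analysis was possible because each group has 1 library and no result comes from a test. With summits inside the spans only, 4 of the 9 genes had a peak in each list, on 5 peaks in list 1 and 6 in list 2. With the 5000 strongest peaks of each list 5 genes had a peak in each list, on 4 peaks per list, since the Ogn start peak counted for Aspn, Omd and Ogn. The share of all protein-coding genes with one of these peaks was not counted. This and the later counts at that setting thus have no genome-wide share beside them. A window of 10 kb left 11 peaks in list 1 and 13 in list 2, of which 8 in each were shared. A window of 100 kb took in the site beyond Fmod and Btg2, which made the strongest peak 42.8-fold in list 1 and 51.6-fold in list 2. On the log2 scale, the median of list 1 over list 2 at the 14 shared sites, -0.0063 as reported, was -0.14 with each list's genome-wide floor as background and 0.15 after division by the median ratio of all pairs, so its sign depends on the scaling. With 10 kb windows the other genes of the family gave 5 in each list, chondroitin and dermatan sulfate genes 9 in list 2 and large proteoglycans 5 in list 1. With the 5000 strongest peaks the counts were 4 and 5 for the family in list 1 and list 2, 5 and 5 for chondroitin and dermatan sulfate genes, 3 and 2 for keratan sulfate genes, and 4 and 3 for large proteoglycans. Of the other values under alternatives, 54 summary values and 68 values of single genes or sites moved by less than their limits, and 9 of single genes moved further. Values within their limits still changed. With a -log10 q of at least 5, 7 members had a peak in list 1, without Dcn and Lum, and all 9 in list 2. Member peaks then numbered 14 in list 1 and 18 in list 2. The share of all genes at that threshold was not counted. Peaks of 9 to 20 fragments have wide counting intervals, and a site missing from a list was not shown to be unbound.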
